A study of Mus musculus with 80 samples.

Results

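Oxytocin and arginine vasopressin are a pair of closely related peptide hormones. The 4 genes described here, taken by symbol from the 27179 genes of the deposited count table, are the precursors Oxt (Entrez 18429) and Avp (Entrez 11998) and the receptors Oxtr (Entrez 18430) and Avpr1a (Entrez 54140). All 4 were counted in the table, and all 4 passed the filter on low values, which kept genes that reached 0.5 CPM in at least 7 libraries. CPM is the read count of a gene scaled to the total of its library.

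Polyadenylated RNA was sequenced in 77 libraries from the hypothalamus, amygdala, hippocampus, neocortex and cerebellum of 16 female mice, C57BL/6 by the labels and C57BL/6J by the study's methods. Of these mice 8 were virgin and 8 were primiparous, meaning that they had raised a first litter, and the states were matched for age. Each primiparous female had been paired with a male at 8 weeks of age, and her tissue was collected, by the labels, 3 weeks after her pups were weaned, although the study's methods give a longer interval. By the study's methods virgins were kept 8 to a cage and never with a male, while a mated female shared a pen with a male. Mating, pregnancy, nursing, contact with a male and group housing therefore cannot be told apart. Each state had 8 libraries in the hypothalamus and in the neocortex. The amygdala, hippocampus and cerebellum had 7 virgin and 8 primiparous libraries, because the authors left out the libraries of virgin 4487, virgin 4490 and virgin 4490, respectively. The same animals gave all regions, the hypothalamus was taken whole and the other regions from the left side alone, and the libraries of a region were pooled for sequencing. Animal numbers also split by state: 7 primiparous and 2 virgin animals had numbers of 3 digits, while 1 primiparous and 6 virgin animals had numbers of 4 digits, so state and number series can hardly be told apart.

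Total counts per library ran from 7959192 to 37871854, with a median of 17623886. Hypothalamus libraries had a median of 13733022 counts in virgins (lowest 10569737, highest 23352639) and 14756056 in primiparous females (lowest 7959192, highest 21244211). Amygdala libraries had a median of 17210641 counts in virgins (12175504 to 19628734) and 13818474 in primiparous females (11248560 to 16301591). The hippocampus medians were 21527911 in virgins (14404113 to 37871854) and 22226502 in primiparous females (17483053 to 34061616). The neocortex medians were 22781835 (8678050 to 31391961) and 16440282 (12265440 to 30341040), and the cerebellum medians were 18717580 (8702483 to 23755185) and 22169476 (10978327 to 29090360). Levels below about 1 CPM therefore rest on a small number of reads. The 95% intervals given for differences come from fits across libraries and take in the spread between animals.

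In the rodent brain, oxytocin and vasopressin are made mainly by large neurons of the paraventricular and supraoptic nuclei of the hypothalamus, which cleave the hormones from longer precursors and send them to the posterior pituitary for release into the blood. Vasopressin is also made in the suprachiasmatic nucleus and in cells of the extended amygdala. Oxtr and Avpr1a encode receptors that couple to Gq and phospholipase C, and oxytocin is known for its part in birth, milk ejection and maternal behaviour, vasopressin for water balance and social behaviour.

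The precursor genes are neighbours. In GRCm38, Oxt lies on the plus strand (chr2:130576173-130577054) and Avp on the minus strand (chr2:130580620-130582554), with 3565 bases between their 3′ ends. Whether counting took strand into account was not given, so reads of overlapping or antisense transcripts may be in any of these counts. Oxtr lies on the minus strand (chr6:112473683-112489943) and Avpr1a on the plus strand (chr10:122448499-122453452). The stretches that encode the active peptides and the cleavage signal that follows them show how alike the ligands are. Both lie in exon 1 of 3, run over 12 codons, of which the first 9 encode the peptide, and come from GENCODE M21 on GRCm38 (chr2:130576267-130576302, plus strand, and chr2:130582437-130582472, minus strand). Of the 36 bases 5 differed, in 3 codons. The capitals mark codons 3 and 8, the 2 that differ in the residue they encode.
Oxt coding stretch: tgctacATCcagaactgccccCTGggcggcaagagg
Avp coding stretch: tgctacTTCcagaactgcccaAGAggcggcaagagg

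Oxt was a hypothalamic transcript in these dissections. Its level in the hypothalamus ran from 145 to 331 CPM in the 8 virgins, with a median of 259, and from 215 to 482 CPM in the 8 primiparous females, with a median of 285. In the amygdala it ran from 0.3997 to 7.59 CPM in virgins (median 4.02) and from 0.222 to 8.10 CPM in primiparous females (median 2.82). All 16 hypothalamus libraries lay above every library of the other regions. In the hippocampus the virgin median was 0.208 CPM (highest 0.883, with 3 of 7 libraries at 0) and the primiparous median 0.207 CPM (0.0418 to 2.59). Neocortex medians were 0.306 CPM in virgins (0 to 1.87) and 0.220 CPM in primiparous females (0.117 to 0.535), and cerebellum medians were 0.461 CPM (0.0842 to 2.17) and 0.138 CPM (0 to 0.273). The last 3 regions thus stood near the detection limit, and 10 of 15 amygdala libraries lay above the highest hippocampus library.

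Avp followed the same order at the top and stood further out in the amygdala. Its hypothalamic level ran from 124 to 412 CPM in virgins, with a median of 265, and from 267 to 493 CPM in primiparous females, with a median of 330. In the amygdala it ran from 2.44 to 61.1 CPM in virgins (median 23.3) and from 1.404 to 36.7 CPM in primiparous females (median 26.5). All 16 hypothalamus libraries again lay above all others, and 13 of 15 amygdala libraries lay above the highest hippocampus library. Hippocampus medians were 0.464 CPM in virgins (0.0521 to 0.929) and 0.782 CPM in primiparous females (0.264 to 4.19). Neocortex medians were 0.502 CPM (0.0462 to 4.04) and 0.382 CPM (0.137 to 1.42), and cerebellum medians were 0.492 CPM (0.0534 to 6.57) and 0.208 CPM (0 to 1.02).

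Oxtr had a flatter distribution with its peak in the amygdala. There it ran from 15.8 to 26.6 CPM in virgins (median 25.2) and from 15.7 to 41.1 CPM in primiparous females (median 28.3). In the hypothalamus it ran from 10.1 to 15.5 CPM in virgins (median 13.6) and from 9.64 to 14.9 CPM in primiparous females (median 12.5). All 15 amygdala libraries lay above every hypothalamus library, the reverse of the other 3 genes. Hippocampus medians were 11.6 CPM in virgins (7.66 to 13.4) and 12.1 CPM in primiparous females (6.49 to 16.2), and neocortex medians were 8.68 CPM (5.99 to 10.5) and 7.27 CPM (6.28 to 8.98). In the cerebellum the medians were 0.968 CPM (0.747 to 1.38) and 0.616 CPM (0.193 to 1.26), so all 16 neocortex libraries lay above every cerebellum library.

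Avpr1a, the main vasopressin receptor of the brain, was again highest in the hypothalamus. It ran there from 7.95 to 10.5 CPM in virgins (median 8.73) and from 7.52 to 11.2 CPM in primiparous females (median 8.95), a narrow spread beside that of the ligands. Amygdala medians were 0.410 CPM in virgins (0.287 to 1.15) and 0.535 CPM in primiparous females (0.0889 to 1.19). In the hippocampus the medians were 0.145 CPM (0.0411 to 0.871) and 0.243 CPM (0 to 0.343), and in the neocortex 0.346 CPM (0.0781 to 0.4934) and 0.311 CPM (0.163 to 0.617). Cerebellum levels reached 0.256 CPM in virgins, with 3 of 7 at 0, and 0.337 CPM in primiparous females, with 2 of 8 at 0. Outside the hypothalamus every library was thus below 1.2 CPM.

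**Figure D1:**
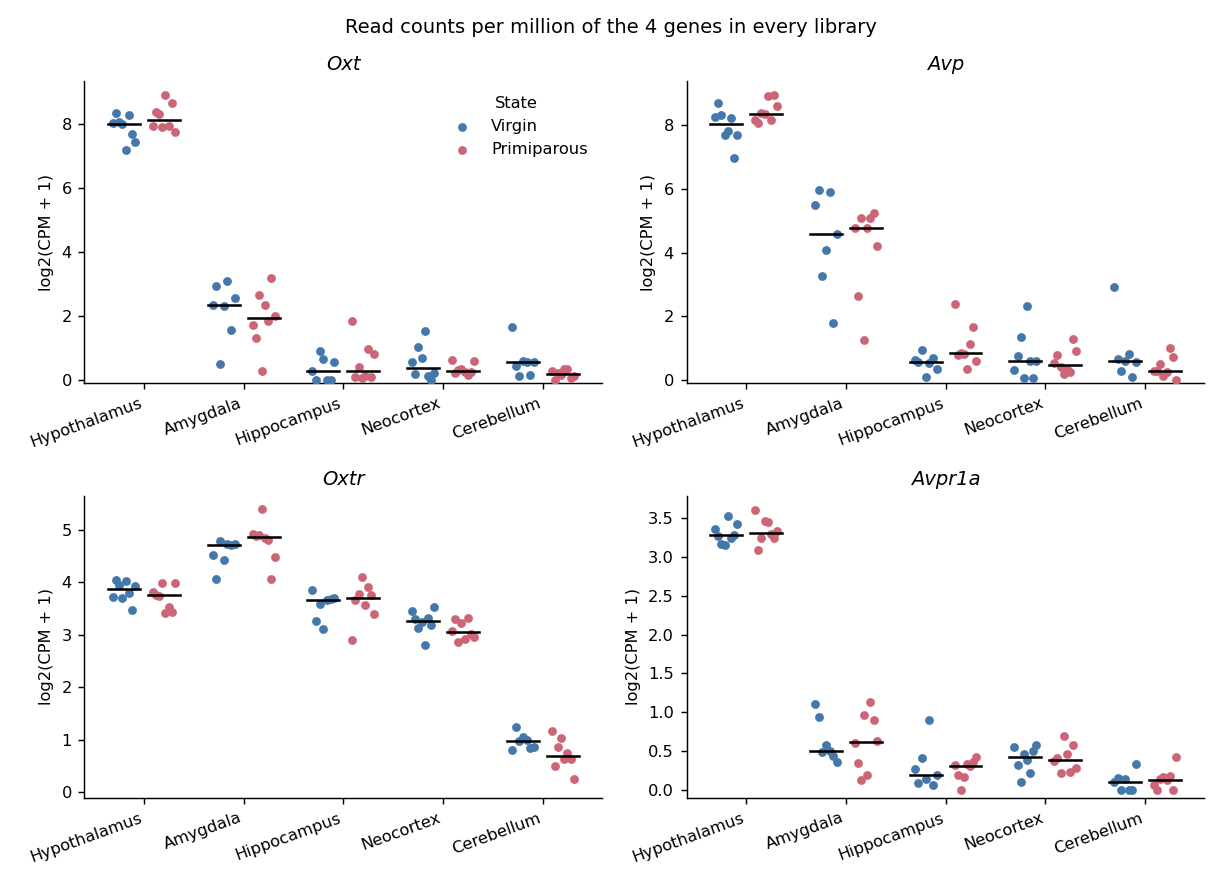
Each panel plots log2(CPM + 1) of 1 gene by region, with 1 point per library, virgins and primiparous females side by side and a bar at each median. Oxt, Avp and Avpr1a stand apart in all 16 hypothalamus libraries, while 13 of 15 amygdala libraries lie above every library of the other regions for Oxtr.

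Scaled to exon length, the ligands were among the most abundant transcripts of the hypothalamus and the receptors stood below the middle of the range. Avp had a mean level of 540 CPM per kb and rank 18 of 15563 genes with a length there, and Oxt had 518 CPM per kb and rank 20. Avpr1a had 3.39 CPM per kb (rank 9099) and Oxtr 2.67 CPM per kb (rank 9908) in the same libraries. In the amygdala the order was Avp at 45.5 CPM per kb (rank 932), Oxt at 7.04 (rank 5970), Oxtr at 5.31 (rank 7105) and Avpr1a at 0.215 (rank 14184).

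Regions were compared pair by pair with edgeR's quasi-likelihood F-test in a fit of the 10 groups, with Benjamini-Hochberg adjustment over all genes tested. That fit did not pair the libraries of an animal, and a fit with the animal as a block changed no member's call. Between the hypothalamus and the amygdala all 4 members passed an adjusted p of 0.05, where 65.3% of all genes tested did. The level of Oxt was 65.2-fold higher in the hypothalamus (log2 difference 6.03, 95% interval 5.52 to 6.53), that of Avp 10.7-fold and that of Avpr1a 14.2-fold, each in 16 of 16 libraries above every amygdala library. Oxtr was 2.16-fold higher in the amygdala (log2 difference -1.11, 95% interval -1.32 to -0.91). Because dissections of a region hold many cell types, fewer cells that make a transcript and less of it per cell cannot be told apart in these bulk data.

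Against the hippocampus, 3 of 4 members were called (67.0% of all genes): Oxt 596-fold, Avp 360-fold and Avpr1a 32.8-fold higher in the hypothalamus. The Oxtr difference there was 0.02 on the log2 scale (95% interval -0.19 to 0.23, adjusted p = 0.893), which places these regions side by side in its order. Against the neocortex (72.0% of genes called) and the cerebellum (75.6%) all 4 were higher in the hypothalamus. Oxtr was 1.45-fold above the neocortex (adjusted p = 4.6e-06, with 13 of 16 hypothalamus libraries above the highest neocortex library) and 15.3-fold above the cerebellum. Avpr1a was 25.5-fold and 96.4-fold above them, respectively.

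The amygdala came second for both ligands. Against the hippocampus (52.1% of genes called), the neocortex (55.2%) and the cerebellum (74.7%) all 4 members were higher in the amygdala. Avp was 33.7-fold and Oxt 9.13-fold above the hippocampus, Oxtr 2.19-fold and Avpr1a 2.31-fold (adjusted p = 0.000608, with 4 of 15 amygdala libraries above the highest hippocampus library). For Oxt the log2 difference from the hippocampus ran from 3.16 to 4.07 over the alternatives. Oxtr was 3.15-fold above the neocortex and 33.1-fold above the cerebellum. The Avpr1a difference from the neocortex was small, 1.80-fold with 5 of 15 libraries above the highest neocortex library (adjusted p = 0.0135), and limma-voom gave an adjusted p of 0.0574 for it.

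Among the hippocampus, neocortex and cerebellum, the ligands did not separate. Both receptors stood above the cerebellum, and Oxtr alone was called between hippocampus and neocortex. Between hippocampus and neocortex 1 of 4 members was called (58.8% of all genes), namely Oxtr, 1.44-fold higher in the hippocampus (adjusted p = 1.54e-05, 11 of 15 libraries above the highest neocortex library). Avpr1a differed there by -0.36 on the log2 scale (95% interval -0.996 to 0.27, adjusted p = 0.331). Both receptors were called above the cerebellum, in the hippocampus (2 of 4 members, 72.8% of genes) by 15.1-fold for Oxtr and 2.94-fold for Avpr1a, and in the neocortex (2 of 4, 74.5%) by 10.5-fold and 3.79-fold. For Oxt and Avp the log2 differences among these 3 regions lay between 0.16 and 0.77, with adjusted p from 0.304 to 0.858.

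The 2 further vasopressin receptors were rare. Avpr1b (Entrez 26361), known as the receptor of the CA2 field and the pituitary, had a median of 0.985 CPM in the hippocampus of virgins (0.343 to 1.56) and 0.786 CPM in that of primiparous females (0.379 to 1.56), and a median of 0 in every other group. All 15 hippocampus libraries lay above every amygdala, neocortex and cerebellum library. In the hypothalamus Avpr1b was at 0 in 13 of 16 libraries, and 13 of 15 hippocampus libraries lay above its highest value there, 0.449 CPM from 6 counts. Avpr2, the kidney receptor, reached at most 1.28 CPM in a single hypothalamus library and 0.755 CPM outside that region.

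The 3 genes that shared the hypothalamic pattern had different promoters by sequence. The 250 bases before the start of Oxt (chr2:130575919-130576168, plus strand), Avp (chr2:130582589-130582838, minus strand) and Avpr1a (chr10:122448249-122448498, plus strand) are given from RefSeq on GRCm38.p6, 5′ to 3′ on the gene's strand. Capitals mark every match, on either strand, to any of 6 motifs. These were the E-box CACGTG, the half-site of nuclear receptors TGACC, the response element of cyclic AMP signalling TGACGTCA, the TATA box with letters TATAAA, the GC box with letters GGGCGG, and the CCAAT box with these same letters.
Oxt promoter: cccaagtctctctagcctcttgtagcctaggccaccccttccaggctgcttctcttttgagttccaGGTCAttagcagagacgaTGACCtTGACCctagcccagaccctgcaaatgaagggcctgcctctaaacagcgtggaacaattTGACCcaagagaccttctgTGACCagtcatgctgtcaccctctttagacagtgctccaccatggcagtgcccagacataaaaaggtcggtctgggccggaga
Avp promoter: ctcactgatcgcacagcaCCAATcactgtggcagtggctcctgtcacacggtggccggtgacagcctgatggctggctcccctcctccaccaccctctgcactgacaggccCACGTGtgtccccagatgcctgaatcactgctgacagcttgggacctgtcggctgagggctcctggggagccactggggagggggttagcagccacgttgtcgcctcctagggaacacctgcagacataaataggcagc
Avpr1a promoter: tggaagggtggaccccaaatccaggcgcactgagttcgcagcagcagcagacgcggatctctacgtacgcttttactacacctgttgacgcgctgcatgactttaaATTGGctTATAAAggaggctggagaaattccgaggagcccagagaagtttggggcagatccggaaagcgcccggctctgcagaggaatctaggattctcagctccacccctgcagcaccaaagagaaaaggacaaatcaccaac

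Oxt held TGACC 5 times, 4 times on its own strand and once on the other, the first 184 and the last 83 bases before the start. TGACC occurs in 35.2% of all 32851 promoters of this length. Avp held no TGACC but 1 CACGTG, 139 bases before its start, a motif in 6.02% of promoters, and 1 CCAAT, 232 bases before it (33.8% of promoters). Avpr1a held TATAAA 137 bases before its start (12.4% of promoters) and CCAAT on the other strand, 144 bases before it. The Oxtr window held 1 CACGTG, 1 TGACC and 1 GGGCGG (32.7% of promoters), the CACGTG directly beside the GGGCGG, but its RefSeq start differs from the GENCODE one and part of that window lies inside the GENCODE transcript. TGACGTCA, in 1.55% of promoters, was in none of the 4. The GC content was 54.0% for Oxt, 62.4% for Avp, 61.6% for Oxtr and 53.6% for Avpr1a, where the median of all promoters was 52.4%. A match is a description of letters and no evidence of a bound factor.

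The question of the study was how first motherhood relates to expression in these regions, and in the hypothalamus neither ligand nor receptor was called. Avp had a mean level of 263 ± 89.6 CPM (SD, n = 8) in virgins and 359 ± 89.0 CPM (n = 8) in primiparous females, a ratio of 1.34 in the fit (log2 difference 0.42, 95% interval -0.05 to 0.89, adjusted p = 0.220). All 8 primiparous libraries lay above the virgin median, and 2 of them, primiparous 427 at 493 CPM and primiparous 421 at 486 CPM, lay above the highest virgin, 409 at 412 CPM. Oxt had 245 ± 64.4 CPM (n = 8) and 311 ± 93.3 CPM (n = 8), a log2 difference of 0.32 (95% interval -0.12 to 0.75, adjusted p = 0.332). For Oxt, primiparous 421 at 482 CPM, 427 at 406 CPM and 414 at 331 CPM lay above the highest virgin, and 4 of 8 lay above the virgin median.

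The receptors differed by less in the hypothalamus. Oxtr had 13.4 ± 1.90 CPM (n = 8) in virgins and 12.2 ± 2.09 CPM (n = 8) in primiparous females, a log2 difference of -0.16 (95% interval -0.38 to 0.07, adjusted p = 0.376), with 6 of 8 primiparous libraries not above the virgin median. Avpr1a had 8.92 ± 0.878 CPM (n = 8) and 9.19 ± 1.15 CPM (n = 8), a log2 difference of 0.01 (95% interval -0.21 to 0.23, adjusted p = 0.950). The count of members called was therefore 0 of 4 by edgeR's quasi-likelihood F-test, where 15.2% of all genes tested were called, with 0 of 4 at an unadjusted p under 0.05, beside 5073 of all 17079 genes, and 0 of 4 by limma-voom and by DESeq2. With the number series of the animals as a further term, the log2 difference was 0.04 for Oxt (adjusted p = 0.969) and 0.25 for Avp (adjusted p = 0.736), and with a correction for gene length and GC content 0.08 and 0.22 (adjusted p = 0.860 and 0.664). Adjusted p over all alternatives ran from 0.225 to 0.969 for Oxt and from 0.0899 to 0.736 for Avp.

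**Figure D2:**
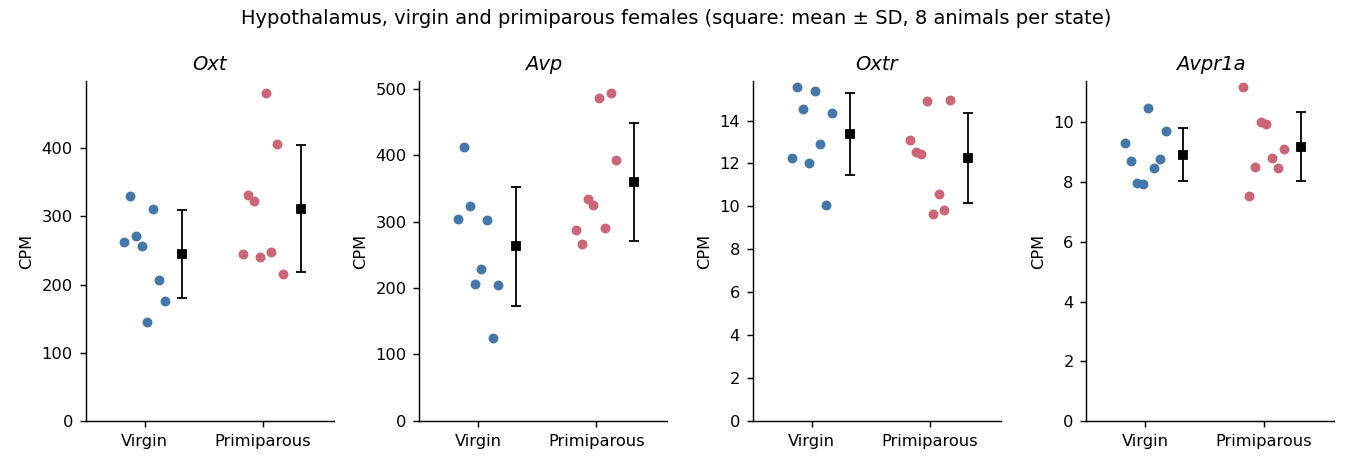
Level in CPM of the 4 genes in each hypothalamus library of 8 virgin and 8 primiparous females, with squares at the mean and bars of 1 SD. The ranges overlap for all 4 genes, and the highest Oxt and Avp points are primiparous 421 and 427.

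In the amygdala the virgin and primiparous ranges of both ligands covered more than a 10-fold span each. Oxt differed by -0.33 on the log2 scale (95% interval -1.49 to 0.83, adjusted p = 0.906) and Avp by -0.45 (95% interval -1.87 to 0.97, adjusted p = 0.886). Over all alternatives these values ran from -0.65 to -0.12 for Oxt and from -0.88 to -0.0955 for Avp. Oxtr had 23.0 ± 3.88 CPM (n = 7) in virgins and 27.5 ± 7.25 CPM (n = 8) in primiparous females, a log2 difference of 0.26 (95% interval -0.05 to 0.57, adjusted p = 0.583). For Oxtr 6 of 8 primiparous libraries lay above the highest virgin, and the lowest library of all was also primiparous, 427 at 15.7 CPM. By edgeR's quasi-likelihood F-test 0 of 4 members were called in the amygdala (0.0% of all genes tested), with 0 of 4 at an unadjusted p under 0.05, beside 1712 of all 17079 genes, and 0 of 4 by limma-voom and DESeq2. Without primiparous 427 the Oxtr log2 difference was 0.35 (adjusted p = 0.413), and without primiparous 418, the library with 41.1 CPM, it was 0.15 (adjusted p = 0.750).

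The hippocampus, neocortex and cerebellum gave 0 of 4 members each by edgeR's quasi-likelihood F-test, where 0.0%, 0.0% and 0.328% of all genes were called, and 0 of 4 each by limma-voom and DESeq2. At an unadjusted p under 0.05 the members were 1, 0 and 2, respectively, beside 1141, 1480 and 2819 of all 17079 genes. The first was Avp in the hippocampus, with a log2 difference of 1.46 (95% interval 0.31 to 2.62, adjusted p = 0.679) and 7 of 8 primiparous libraries above the virgin median of 0.464 CPM. Primiparous 413 was the highest there at 4.19 CPM, and without it the log2 difference was 0.92 (adjusted p = 0.576). That library also held cerebellum markers at a sum of 463 CPM for the 6 genes listed, where all 7 virgin hippocampus libraries held between 7.97 and 15.4 CPM, and their part in the Avp level was not tested.

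In the cerebellum the members at an unadjusted p under 0.05 were the ligands, both lower in primiparous females at levels near the detection limit. Oxt had 0.590 ± 0.715 CPM (n = 7) in virgins and 0.146 ± 0.101 CPM (n = 8) in primiparous females, a log2 difference of -2.04 (95% interval -3.40 to -0.69, adjusted p = 0.128). None of the 8 primiparous libraries lay above the virgin median of Oxt, and 5 of 7 virgins lay above the highest primiparous library. Avp differed by -1.91 (95% interval -3.77 to -0.04, adjusted p = 0.293), with 6 of 7 virgins above the primiparous median. Virgin 405 held the highest level of both, 2.17 CPM for Oxt and 6.57 CPM for Avp. Without virgin 405 the log2 difference was -1.22 for Oxt (adjusted p = 0.310) and -0.29 for Avp (adjusted p = 0.857). With the number series as a further term it was -2.87 for Oxt (adjusted p = 0.616) and -3.37 for Avp (adjusted p = 0.308).

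In the neocortex the log2 differences were -0.82 for Oxt (95% interval -2.14 to 0.50, adjusted p = 0.653), -0.63 for Avp (-2.06 to 0.80, 0.744), -0.15 for Oxtr (-0.39 to 0.10, 0.656) and 0.17 for Avpr1a (-0.59 to 0.92, 0.883). With 1 library left out in turn, the Oxt value ran from -1.06 to -0.30. For the ligands 2 of 8 and 3 of 8 primiparous libraries lay above the virgin median, and virgin 4488 held the highest level of both. The receptor intervals in the hippocampus, -0.22 to 0.44 for Oxtr and -1.57 to 0.75 for Avpr1a, and in the cerebellum, -1.15 to 0.24 and -1.399 to 2.17, also crossed 0. Virgin and primiparous ranges overlapped for all 4 genes in all 5 regions.

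**Figure D3:**
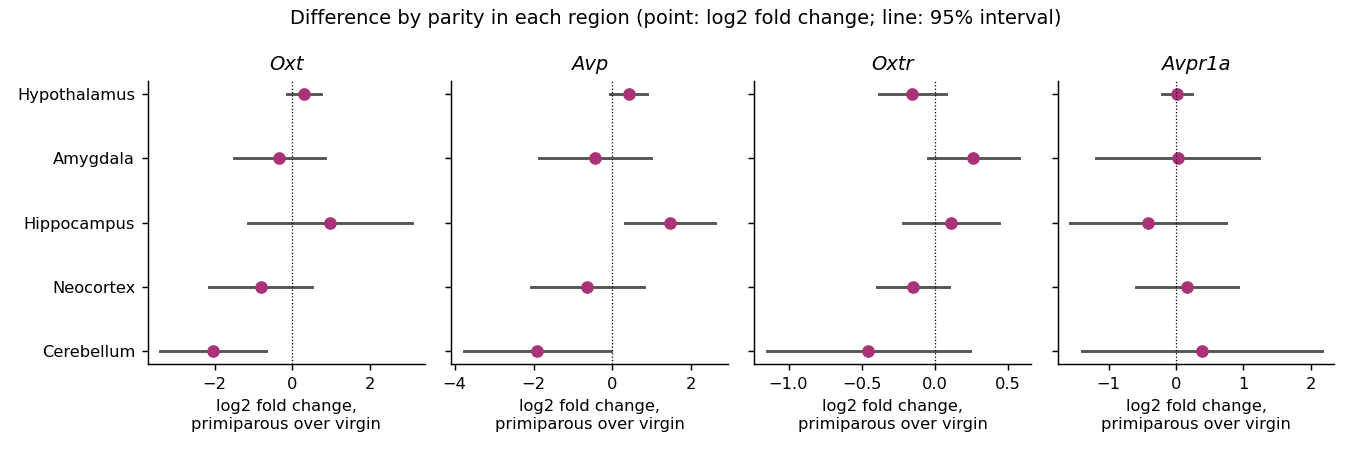
Log2 difference between primiparous and virgin females for each gene and region, with its 95% interval. Intervals are narrow for the receptors in the hypothalamus and wide for all genes at low counts, and no difference passed an adjusted p of 0.05.

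Whether parity differed in its relation to these genes between regions was tested directly, as the difference between the hypothalamic log2 difference and that of each other region. In the test against the amygdala 0 of 4 members were called by edgeR's quasi-likelihood F-test (12.3% of all genes), with 1 of 4 at an unadjusted p under 0.05, beside 4540 of all 17079 genes. That member was Oxtr, lower in primiparous hypothalamus and higher in primiparous amygdala, with a difference of -0.41 (95% interval -0.79 to -0.03, adjusted p = 0.155). Against the cerebellum 0 of 4 were called (10.3% of genes) and 2 of 4 had an unadjusted p under 0.05, beside 4285 of all 17079 genes: Oxt with 2.32 (95% interval 0.43 to 4.22, adjusted p = 0.108) and Avp with 2.21 (0.33 to 4.09, adjusted p = 0.125). Against the hippocampus (11.7% of genes called) and the neocortex (0.0%) the counts were 0 of 4 each, also at an unadjusted p under 0.05, beside 4615 and 564 of all 17079 genes. With limma-voom 0 of 4 were called in each of these 4 tests.

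The levels of the members were also set against each other across animals. In the hypothalamus, after centring each state, Oxt and Avp had r = 0.595 over 16 libraries (permutation p = 0.0143, adjusted p = 0.0858 over 6 relations) and rho = 0.641 (permutation p = 0.00907, adjusted p = 0.0544), short of the threshold. Without the 2 farthest libraries, primiparous 4493 and virgin 4488, r was 0.740, and within the states it was 0.615 in virgins and 0.599 in primiparous females. Within the animals with numbers of 3 digits (9 libraries) r was 0.803, and within those with 4 digits (7 libraries) 0.298. The other 5 relations among the members had adjusted p for r of 0.162 or more. Among them Oxt and Oxtr had r = -0.450, with -0.0657 in virgins and -0.786 in primiparous females, and Oxt and Avpr1a had r = -0.463, with -0.756 and -0.241.

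In the amygdala the ligands rose together from library to library. These relations were added after the levels had been seen, and their difference from those of the hypothalamus was not tested. Oxt and Avp had r = 0.822 over 15 libraries (permutation p = 0.00046, adjusted p = 0.00276 over 6 relations) and rho = 0.818 (permutation p = 0.00037, adjusted p = 0.00222). The relation was as strong or nearly so without primiparous 418 and virgin 4486 (r = 0.767), within virgins (0.759, 7 libraries), within primiparous females (0.881, 8 libraries) and within both number series (0.878 over 9 libraries and 0.734 over 6). High libraries for both were virgin 409 with 6.72 CPM of Oxt and 61.1 CPM of Avp, virgin 4489 with 7.59 and 58.6 CPM, and primiparous 427 with 8.10 and 36.7 CPM. The low end was primiparous 418 with 0.222 and 1.404 CPM. Oxtr ran the other way: Oxt and Oxtr had r = -0.672 (permutation p = 0.00706, adjusted p = 0.0212) and rho = -0.511 (adjusted p = 0.118), and Avp and Oxtr had r = -0.566 (permutation p = 0.0279, adjusted p = 0.0557) and rho = -0.504 (adjusted p = 0.118), with r = -0.357 without virgin 4490 and primiparous 418 (permutation p = 0.228). Without primiparous 418 and virgin 4486 the Oxt and Oxtr value was -0.521 and no longer under 0.05 (permutation p = 0.0693), so its call rests on them. On the other 3 scales tried it was -0.528 (log2(CPM + 4), permutation p = 0.0645), -0.552 (the deposited log2 values, permutation p = 0.0511) and -0.561 (TMM-adjusted CPM, permutation p = 0.0469) without them. Within the number series it was -0.851 in the animals with 3 digits and -0.271 in those with 4.

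**Figure D4:**
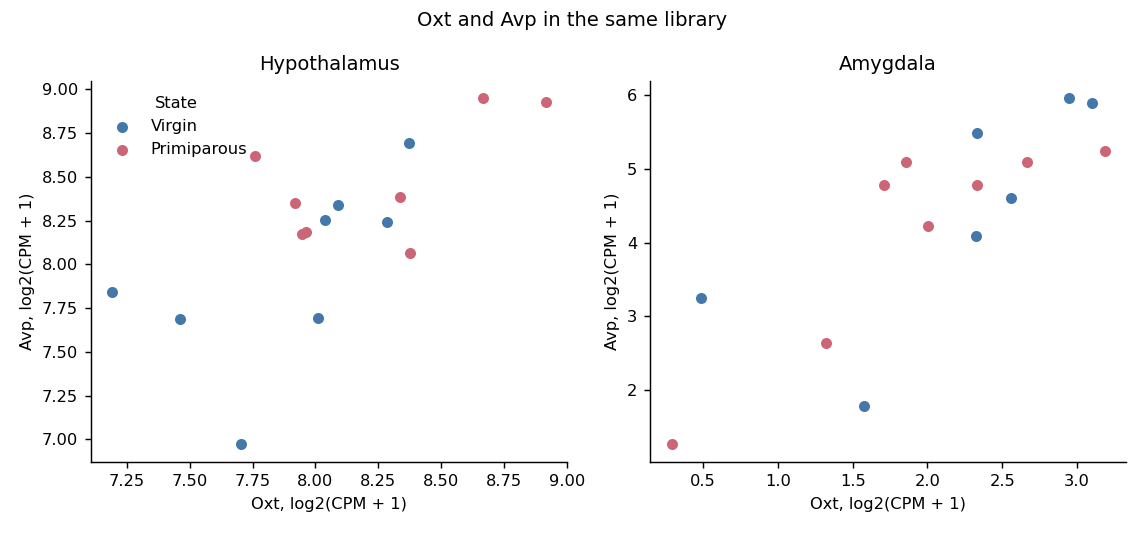
Avp against Oxt in each library of the hypothalamus (16) and the amygdala (15), with virgins and primiparous females marked. In the amygdala both levels are lowest in primiparous 418, while Oxt is highest in primiparous 427 (8.10 CPM) and Avp in virgin 409 (61.1 CPM).

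Markers of the neighbouring tissue were read beside these levels, each list as the summed CPM of its genes, with 52 relations per region between the 4 members and 13 lists. Both r and rho passed for 2 of 52 relations in the amygdala and 2 of 52 in the hypothalamus. In the amygdala both ligands rose with the 6 choroid plexus genes, whose sum ran from 14.6 to 82.8 CPM and whose most abundant gene was Ttr, with a mean of 21.9 CPM. Oxt had r = 0.895 with that sum (permutation p = 1e-05, the smallest that the resamples can give, adjusted p = 0.00052) and rho = 0.904 (adjusted p = 0.00156). Avp had r = 0.872 (permutation p = 3e-05, adjusted p = 0.00078) and rho = 0.807 (adjusted p = 0.0091). Without the 2 farthest libraries, virgin 4490 and primiparous 418, r was 0.861 and 0.783, and within virgins and primiparous females it lay between 0.865 and 0.922. Within the number series r was 0.911 and 0.872 for Oxt and 0.836 and 0.954 for Avp. Oxtr had r = -0.636 with the same sum (adjusted p = 0.113) and rho = -0.504 (adjusted p = 0.252), which did not pass. Oxt also fell as the 6 genes listed for amygdala nuclei rose, with r = -0.835 (permutation p = 6e-05, adjusted p = 0.00104), but rho = -0.696 did not pass (adjusted p = 0.0701), and without primiparous 427 and virgin 4486 r was -0.687. That list sums to 167 to 277 CPM in the amygdala but to 373 to 452 CPM in the hypothalamus, through Dlk1 there (352 CPM), and so does not mark the amygdala alone. With the 6 thalamus genes, 46.5 to 72.9 CPM in the amygdala and led by Prkcd at 22.7 CPM, Oxt passed by rho = 0.736 (adjusted p = 0.0458) but not by r = 0.608 (adjusted p = 0.113), and without virgin 4486 and primiparous 421 r was 0.574. The thalamus list sums to 145 to 166 CPM in the cerebellum, and so does not mark the thalamus alone. The part of dissection in these relations was not tested.

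**Figure D5:**
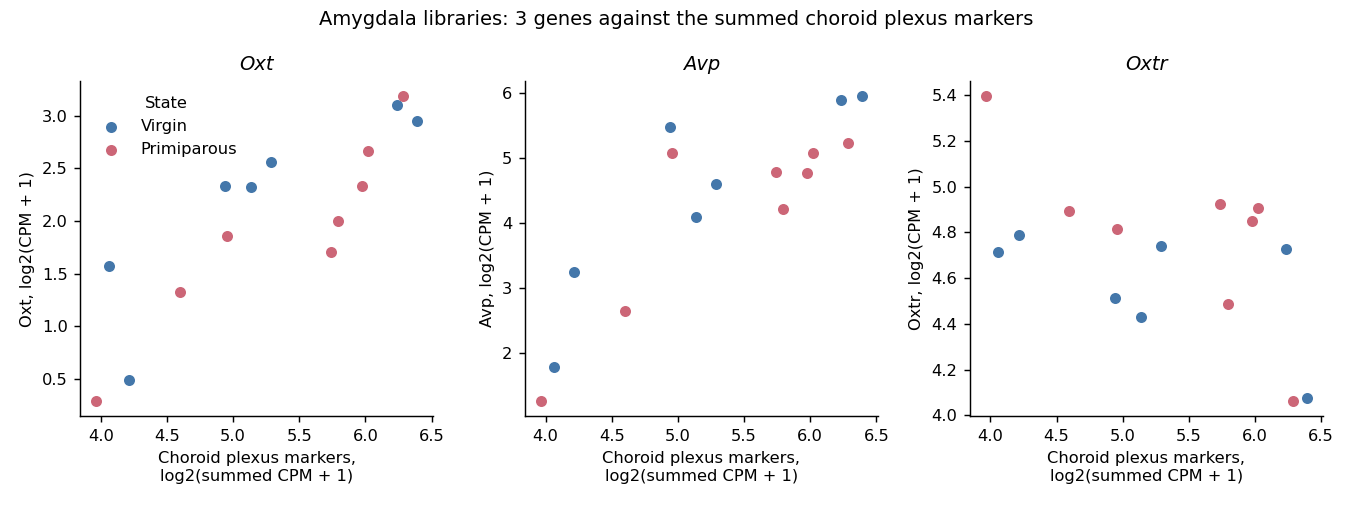
Levels of Oxt, Avp and Oxtr against the summed level of 6 choroid plexus genes, in CPM, in the 15 amygdala libraries. Oxt and Avp are higher where the sum is higher, while the Oxtr relation (r = -0.636) did not pass the test.

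Hypothalamic tissue in the amygdala libraries was read from 8 genes that define the hypothalamus outside the oxytocin and vasopressin neurons. Their sum was 467 to 759 CPM in the hypothalamus, where Hcrt was the most abundant at a mean of 244 CPM, and 5.07 to 35.6 CPM in the amygdala, with a median of 9.37 CPM. The highest amygdala sum was that of primiparous 427, which held the highest level of 5 of the 8: Hcrt at 15.8 CPM, Pomc at 10.6 CPM, Pmch at 6.01 CPM, Hmx2 at 0.859 CPM and Hmx3 at 0.429 CPM, the last at 0 in all other amygdala libraries. The next level was 0.813 CPM for Hcrt (primiparous 418). It was nearer for Pomc, 10.5 CPM (primiparous 421), Pmch, 4.69 CPM (primiparous 425), and Hmx2, 0.713 CPM (virgin 409). The other 3 genes were not high in primiparous 427, with Nkx2-1 the lowest of the 15 libraries at 0.859 CPM, Fezf1 at 1.04 CPM and Agrp at 0.0613 CPM. Pomc, the most abundant of the 8 in the amygdala, is also a pituitary gene. Without that animal the mean amygdala level was 3.47 CPM for Oxt, against 3.78 CPM with it, and 25.5 CPM for Avp, against 26.3 CPM, and r between them was 0.824. Primiparous 427 also held pituitary genes in every region, with a summed level of 142 CPM in the hypothalamus, 173 CPM in the amygdala, 61.8 CPM in the hippocampus, 117 CPM in the neocortex and 122 CPM in the cerebellum. Primiparous 414 held pituitary genes in every region too, at 85.8, 30.1, 14.6, 21.4 and 24.9 CPM in the same order. Primiparous 413 held 5.04, 5.76, 17.9, 8.12 and 32.3 CPM. Virgin 4490 held 183 CPM of them in the hypothalamus, 12.5 CPM in the amygdala and 36.4 CPM in the neocortex. In the hypothalamus virgin 4490 had the lowest Avp level and also the highest thalamus sum, 245 CPM where the other 15 held 65.3 to 117 CPM, and the highest endothelial sum, 218 CPM. Without it the Avp parity difference was 0.31 (adjusted p = 0.309).

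In the hypothalamus Avp was higher where astrocyte markers were higher and endothelial markers lower. It had r = 0.836 with the sum of 6 astrocyte genes (permutation p = 5e-05, adjusted p = 0.0013) and rho = 0.918 (adjusted p = 0.00052), a sum of 2597 to 3631 CPM led by Aldoc at 1272 CPM. With the sum of 6 endothelial genes, 108 to 218 CPM and led by Flt1 at 46.5 CPM, it had r = -0.836 (permutation p = 4e-05, adjusted p = 0.0013) and rho = -0.776 (adjusted p = 0.0179). Without virgin 409 and primiparous 427 the values were 0.868 and -0.776. Within virgins the values were 0.940 and -0.851, within primiparous females 0.874 and -0.841, and within the number series 0.858 and 0.906 for astrocyte genes and -0.868 and -0.792 for endothelial genes. Oxt had values of the same sign, 0.613 and -0.589, that did not pass (adjusted p = 0.108 and 0.123). Which tissue or cells vary between these dissections was not tested.

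Levels of a member in the same animal were also set side by side between regions, as a description. Avp in the hypothalamus and in the amygdala had r = 0.596 over 15 animals, the highest of the 40 values of 4 members and 10 pairs of regions. The other 9 pairs of Avp lay between -0.181 and 0.296, the 10 of Oxt between -0.416 and 0.338, those of Oxtr between -0.244 and 0.288 and those of Avpr1a between -0.141 and 0.430.

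Genes whose pattern was most like that of each member were taken by Pearson's r, also as a description. Over all 77 libraries, which fall into 5 regions, Oxt ran with Isl1 (0.978), Cckar, Fezf1, Otp and Gabre, among which Otp and Isl1 are transcription factors of the hypothalamus. Avp ran with Sim1 (0.967), a factor needed for its neurons to form, and with Arhgap36, Gpx3, Irs4 and Dgkk. Among the genes closest to Avpr1a were Pmch (0.985), Hcrt, Krt90 and Hmx3, of which Pmch and Hcrt are peptides of the lateral hypothalamus. Oxtr ran with another set, Krt77 (0.964), 1700086L19Rik, 2900052N01Rik, Sox11 and Map2 (0.953). Among 24076 genes ranked, Oxt stood at rank 10 for Avp and Avp at rank 59 for Oxt. Avpr1a stood at rank 25 for Oxt and Oxt at rank 24 for Avpr1a. Between Avp and Avpr1a the ranks were lower, 146 for Avpr1a in the order of Avp and 239 for Avp in that of Avpr1a.

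Within the 16 hypothalamus libraries, after centring each state, the members did not lead each other's lists. Oxt ran most closely with Pdxk (0.879), Ppp1r8, Rnf41, Smo and Pmm1, with Avp at rank 772 of 14640 genes. Avp ran with Sardh (0.870), Klhdc7a, Pygb, Iqsec3 and Sulf2, with Oxt at rank 376. Oxtr ran with Lyrm1 (0.863), Zkscan6, Rhbdl3, Irgm1 and Inpp4a, and Avpr1a with Dtwd2 (0.852), Snhg4, Atrip, Zbtb32 and Crkl.

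Of 6 genes that process the precursors into peptides, enzymes and their regulators, 0 were called for parity in the hypothalamus by edgeR's quasi-likelihood F-test (15.2% of all genes), with a median log2 difference of -0.06, where the median of all genes was 0.00. Carboxypeptidase E (Cpe), which trims the cleaved ends, had 2409 CPM in virgins and 2305 CPM in primiparous females (adjusted p = 0.152). Pcsk1n, an inhibitor of prohormone convertase, had 863 and 1101 CPM, a log2 difference of 0.32 (adjusted p = 0.0770, higher than the virgin median in 7 of 8). Neither passed the test. At an unadjusted p under 0.05 stood 3 of the 6, beside 5073 of all 17079 genes, and limma-voom called 0 and DESeq2 1.

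Counts of called genes in the lists that follow are read against the 15.2% of all genes called in the hypothalamus, and nothing particular to a list is drawn from them. Of 4 genes of release and breakdown, 1 was called there. Cd38, whose product is needed for oxytocin release, fell from 31.6 ± 2.70 CPM (n = 8) in virgins to 24.8 ± 5.19 CPM (n = 8) in primiparous females, a log2 difference of -0.38 (adjusted p = 0.0108), with 7 of 8 primiparous libraries not above the virgin median. Trpm2, a cation channel, had 43.7 and 49.9 CPM (adjusted p = 0.0860), and Lnpep, the oxytocinase, 55.6 and 49.6 CPM (adjusted p = 0.196).

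Of the 7 transcription and RNA factors of these neurons, 2 fell, where 15.2% of all genes were called, and the median log2 difference was -0.04. Sim1 fell from 24.7 to 20.05 CPM (log2 difference -0.33, adjusted p = 0.0388, 6 of 8 not above the virgin median), and Pou3f2, also called Brn2, from 42.3 to 36.7 CPM (-0.24, adjusted p = 0.0391, 8 of 8). Arnt2, the partner of Sim1, had 371 and 393 CPM (adjusted p = 0.419). Of 9 peptides and enzymes made by the same nuclei, 1 rose and 1 fell (15.2% of all genes called), with a median of 0.10. Galanin (Gal) rose from 28.7 to 37.6 CPM (0.35, adjusted p = 0.0232, 7 of 8 above the virgin median), and secretogranin 2 (Scg2) fell from 1341 to 1246 CPM (-0.14, adjusted p = 0.0410, 7 of 8 not above it). Vgf had 358 and 397 CPM (adjusted p = 0.277). None of the 7 suprachiasmatic genes was called (0 of 7 by edgeR's quasi-likelihood F-test, 1 at an unadjusted p under 0.05, 0 by limma-voom and DESeq2, median 0.04), among them Vip at 15.9 and 13.7 CPM and Rgs16 at 33.1 and 34.8 CPM.

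Of the Gq pathway below both receptors, the longest list, 6 of 16 genes were called, 2 higher and 4 lower, where 15.2% of all genes were called, and the median was -0.01. Rgs4, which ends Gq signals, fell from 207 to 177 CPM (-0.26, adjusted p = 0.00773, 7 of 8 primiparous libraries not above the virgin median). Phospholipase C genes fell too: Plcb4 from 119 to 106 CPM (-0.20, adjusted p = 0.0181, 8 of 8) and Plcb1 from 127 to 112 CPM (-0.22, adjusted p = 0.0235, 7 of 8). The kinase gene Prkcb fell from 325 to 301 CPM (-0.14, adjusted p = 0.0193, 8 of 8). Arrb2, an arrestin that takes receptors off the membrane, rose from 40.3 to 48.9 CPM (0.24, adjusted p = 0.0174, 8 of 8 above the virgin median), while Arrb1 had 391 and 402 CPM. Of 5 steroid receptor genes 1 was called (15.2% of all genes), Nr3c1, the glucocorticoid receptor, which fell from 134 to 117 CPM (-0.22, adjusted p = 0.0190, 8 of 8 not above the virgin median), with a list median of -0.16.

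These calls share the limit that state and number series overlap. With the number series as a further term 0 of the 11 named called genes passed in edgeR's quasi-likelihood F-test, with a correction for length and GC content 1 did (Prkcb), and in a fit of all 10 groups 1 did (Rgs4). With limma-voom 7 of 11 passed, all but Sim1, Pou3f2, Gal and Scg2, so that it called 0 of the 7 factors and 0 of the 9 peptides and enzymes. All 11 passed with DESeq2, and without primiparous 421 it was 3 of 11, Arrb2, Cd38 and Rgs4. The direction was the same in each of these settings. With 1 library left out, 3 to 11 of the 11 passed. Marker lists were read in the same comparison, with no test of a list. Of the 13 marker lists, each with at most 1 gene called in a direction (15.2% of all genes called), the median log2 difference was 0.46 for olfactory bulb, 0.45 for cerebellum, -0.40 for thalamus and 0.21 for pituitary genes, and between -0.06 and 0.14 for the other 9. Their part in the calls of the list genes was not tested. In the amygdala, hippocampus, neocortex and cerebellum 0 of the 56 genes of these lists, Avpr1b and Avpr2 among them, were called by edgeR's quasi-likelihood F-test. At an unadjusted p under 0.05 stood 4, 2, 7 and 9 of them, respectively, beside 1712, 1141, 1480 and 2819 of all 17079 genes. For these 56 genes limma-voom called 0 in each, and DESeq2 called 1, 0, 0 and 2.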

How the data were processed

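The members were taken by symbol, and the members and gene lists were chosen with earlier results of these data known. By the submitters' processing notes, reads were handled with CASAVA, aligned to mm10 with HISAT2 and counted with featureCounts, and edgeR and limma were used. The deposited table of the authors holds each gene's read count per library, a count of whole numbers without normalization, for 27179 genes and 77 libraries. The authors' deposited log2 table (13016 genes) holds log2 values that equal log2 of the count over a size factor, plus 4, within 5.48e-05, and it served as an alternative scale. Genes were matched by Entrez number, because that table gives Avpr1a the symbol Avp: 25275 were named from RefSeq, 16 from GENCODE, 5 from the log2 table, and 1883 had no name. All 4 promoters were found among those of RefSeq.

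The 17079 genes that reached 0.5 CPM in 7 or more libraries were fitted with edgeR 4.0.16 under R 4.3.3: TMM normalization, a quasi-likelihood F-test with robust dispersions, primiparous against virgin within each region, pairs of regions over the 10 groups, and differences of parity differences over the 4 groups of 2 regions, none of them paired by animal. P-values were two-sided and adjusted over all genes tested by Benjamini-Hochberg, with a threshold of 0.05. CPM are counts over the library's total, and correlations used log2(CPM + 1), centred by state within a region, with two-sided permutation tests of 100000 resamples. Alternatives were limma-voom (limma 3.58.1), DESeq2 1.42.0 (9 adjusted p that it did not give stayed missing), its size factors, the study's filter (at least 5 CPM in at least 8 libraries), no filter, the number series as a covariate, a correction for length and GC content (splines with 4 degrees of freedom, 21572 genes with a value), a fit of all 10 groups for parity, the animal as a block for comparisons between regions, and each library left out in turn. Pairing by animal was checked: over 10 pairs of regions the median correlation of expression residuals was 0.00278 to 0.0621 within animals and -0.0115 to -0.000324 between animals. No 2 libraries were identical (highest r 0.997).

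Genes were named by a fixed rule: the members, Avpr1b and Avpr2; of each of 10 pathway lists at most 5 genes called for parity in a region, by p, and the 2 highest by mean CPM in the hypothalamus; and the 5 genes most correlated with each member in the hypothalamus (mean of at least 1 CPM) and over all libraries. Marker genes named beside 13 marker lists are the most abundant of each list or were chosen after their values were seen. The code was tested on simulated data. Python 3.11.15 with numpy 2.4.6, scipy 1.17.1, pandas 2.3.3 and matplotlib 3.10.9 was used for the rest.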

Additional observations from a re-analysis of the deposited data

Results flagged for a closer look

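In each group of a member, region and state, the highest or lowest library was compared with its nearest neighbour by Dixon's ratio, which chance passes in about 1 in 20 groups of normally distributed values. Of the 40 groups, 6 held a library far from the others. CPM were used without a log scale, and all 6 were the highest of their group, so that rate need not hold here. Oxt stood at 2.59 CPM (53 counts) in the hippocampus of primiparous 413, where the next value was 0.972 CPM. It stood at 2.17 CPM (29 counts) in the cerebellum of virgin 405, next to 0.492 CPM. Avp stood at 6.57 CPM (88 counts) in that same library, next to 0.772 CPM, and at 4.04 CPM (52 counts) in the neocortex of virgin 4488, next to 1.56 CPM. Avpr1a stood at 0.871 CPM (33 counts) in the hippocampus of virgin 4488, next to 0.325 CPM, and at 0.337 CPM (7 counts) in the cerebellum of primiparous 4493, next to 0.136 CPM. All 6 lie outside the hypothalamus and the amygdala.

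Among the 11 named list genes called for parity in the hypothalamus, 5 also passed edgeR's quasi-likelihood F-test of the difference from another region. These genes were chosen because their hypothalamic difference passed, and that same difference enters the test, so the count supports nothing by itself. Of all genes, 12.3% passed against the amygdala, 11.7% against the hippocampus, 0.0% against the neocortex and 10.3% against the cerebellum. Values are the hypothalamic log2 difference minus that of the other region. Arrb2 had 0.36 against the amygdala (adjusted p = 0.0253) and 0.38 against the cerebellum (adjusted p = 0.0348). Plcb1 had -0.31 against the hippocampus (adjusted p = 0.0129) and -0.40 against the cerebellum (adjusted p = 0.00583). Rgs4 had -0.29 against the hippocampus (adjusted p = 0.0313), Pou3f2 -0.39 against the cerebellum (adjusted p = 0.0248) and Nr3c1 -0.30 against the cerebellum (adjusted p = 0.0350).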

How the results depend on the processing

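For the members, none of 459 alternative parity values passed the threshold: 437 kept their sign and 22 reversed. Region pairs kept sign and call in 194 of 200 values, tests between regions in 62 of 64 and correlations in 34 of 36, and all 60 levels and 50 region-pair counts kept within their limits. Where values moved, the cause was not tested. With limma-voom the reversed log2 differences were 0.13 for Oxt and 0.13 for Avp in the neocortex, -0.16 for Avpr1a in the amygdala, -0.55 and -0.11 for Oxt in hippocampus against neocortex and cerebellum, and 0.19 for Avpr1a in hypothalamus minus amygdala, while Avpr1a in amygdala against neocortex fell short at 0.71. With the number series as a covariate they were 3.62e-05 for Oxt in the neocortex and -0.36, 0.29 and -0.0198 for Avpr1a in the amygdala, hippocampus and neocortex. The length and GC correction gave -0.00667 for Avpr1a in the hypothalamus, and the study's filter 0.0045 for Oxtr in hypothalamus minus neocortex. With 1 library left out in turn, the values reached -1.002 to 0.11 for Avp in the neocortex, and for Avpr1a -0.0307 to 0.0653 in the hypothalamus, -0.22 to 0.26 in the amygdala, -0.59 to 0.47 in the hippocampus, -0.0032 to 0.32 in the neocortex and -0.20 to 1.17 in the cerebellum. Without the hippocampus library of primiparous 413, which held cerebellum markers, hippocampus against neocortex was -0.19 for Oxt and -0.11 for Avp, and hypothalamus against hippocampus -0.0275 for Oxtr. The amygdala correlation of Avp with Oxtr passed on the TMM scale (-0.576) and in the deposited log2 values (-0.581), but not by rho (adjusted p = 0.162 and 0.174), and without its 2 farthest libraries it was -0.391 and -0.388 (permutation p = 0.182 and 0.185). The correlations in the amygdala, those with marker sums, and the correlations within each number series or without animal 427 were chosen after the data had been seen.

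Counts of genes called for parity moved in 26 of 117 alternatives. The hypothalamic count of 2597 was 3 with the number series and 324 with the length and GC correction. The amygdala count of 0 was 82 with DESeq2, 14 with the number series, 137 in the 10-group fit and 0 to 28 with 1 library left out. The hippocampus count of 0 was 13 with DESeq2, 7 in the 10-group fit and 0 to 1 with 1 library left out, and the neocortex count of 0 was 1 and 8 in the first 2. The cerebellum count of 56 was 509 with DESeq2, 92 with the study's filter, 0 with the number series, 233 with the length and GC correction and 4 (without virgin 4486) to 747 (without primiparous 4493) with 1 library left out. With the animals paired as a replicate block, which the unblocked fit of the report does not do, the hippocampus interaction count of 1993 was 1236, and the block with the GC correction gave 33 for the amygdala, 17 for the hippocampus and 335 for the cerebellum; the block changed no call of a member. Of 264 values of the 11 named list genes, 96 fell short of the threshold and all kept their sign. Depth limits the ligands outside the hypothalamus and amygdala and Avpr1a outside the hypothalamus.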
